A study of Mus musculus with 12 samples.

Results

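Transcripts that mark lymphocytes were followed in 12 RNA libraries of mouse microglial preparations. The set holds 9 of the 23845 genes measured. It comprises 3 B cell genes (Cd79a, Cd79b and Ms4a1), 4 T cell genes (Cd3d, Cd3e, Cd3g and Cd2) and 2 genes of natural killer (NK) and other cytotoxic cells (Nkg7 and Gzma). They were chosen by name, each as the row of the count and TPM tables that bears its symbol, and all 9 passed the filter on low counts. Cells were taken from C57BL6/J mice aged 3 to 4 months on Percoll density gradients, with 1 animal per library, and poly(A) RNA was sequenced from the total RNA of each. The 4 groups of 3 libraries are wild type without treatment (WT), wild type at 24 h after injection of lipopolysaccharide (WT-LPS), and the same pair in mice labelled CPEB1 knockout (CPEB1-KO and CPEB1-KO-LPS). Lipopolysaccharide (LPS) is a component of bacterial outer membranes that activates innate immune cells, and CPEB1 binds messenger RNA and regulates its poly(A) tail and its translation. A Percoll gradient enriches cells by density and does not select on a surface marker, so other cells of similar density can be in these preparations.

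B and T lymphocytes are the cells of adaptive immunity, and each recognises antigen through a receptor assembled with signalling chains of its own. In B cells those chains are Ig-alpha and Ig-beta, the products of Cd79a and Cd79b, and Ms4a1 encodes the surface protein CD20. In T cells the receptor is assembled with the CD3 delta, epsilon and gamma chains, the products of Cd3d, Cd3e and Cd3g, while Cd2 encodes an adhesion receptor of T and NK cells. Cytotoxic T cells and NK cells kill through granules: Gzma encodes granzyme A, a serine protease of those granules, and Nkg7 a protein of the granule membrane. In the healthy brain lymphocytes are scarce in the tissue itself and are found mostly in vessels, the meninges and the choroid plexus. In bulk RNA, fewer cells of a type and less RNA per cell cannot be told apart.

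Libraries held 5.02 to 13.54 M expected counts (M stands for mega), and WT replicates 2 and 3 were the shallowest. The lymphocyte set took between 10.8 and 56.8 counts per M of a library, and single genes had 0 to 165 counts in a library. Microglia markers summed to between 5611 and 6377 TPM (transcripts per mega-transcript, scaled for gene length) in WT, the highest of the 4 groups. Their sums were 2682 to 4230 TPM in CPEB1-KO, 966 to 4457 TPM in WT-LPS and 656 to 2757 TPM in CPEB1-KO-LPS. Sums of neuron markers were 1287 to 3420 TPM (WT) and 3469 to 5007 TPM (CPEB1-KO). After LPS the neuron sums were 2145 to 5727 TPM (WT-LPS) and 2340 to 4296 TPM (CPEB1-KO-LPS). The part of these differences in the lymphocyte results was not tested. Cpeb1 itself was listed at 15.5 to 43.3 TPM in WT and at 17.6 to 26.4 TPM in CPEB1-KO, a log2 difference of -0.58 ± 0.31 (SE; edgeR adjusted p = 0.334), so the transcript does not check the knockout label and the groups are called as labelled. The library labelled CPEB1-KO replicate 1 stood apart from the others of its group. Its B cell genes took 33.6 counts per M, against 6.40 and 4.51 in replicates 2 and 3, and its T cell genes took 18.3 counts per M against 3.87 and 3.43. The comparisons of CPEB1-KO with WT and with CPEB1-KO-LPS, the order of the group means and the correlations are given with and without it. It was set apart by high values of the B and T cell genes, so leaving it out lowers their CPEB1-KO means by selection. For the difference of LPS response between genotypes (interaction), which also uses it, ranges on leaving out each library in turn are given.

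Genes are placed by the GENCODE M21 annotation of mm10, the build of the submitters' processing notes. Cd79a lies at chr7:24897381-24902197 on the plus strand, Cd79b at chr11:106311341-106314762 on the minus strand and Ms4a1 at chr19:11249675-11266241 on the minus strand. The CD3 genes form a cluster on chromosome 9: Cd3g at chr9:44969572-44980431 (minus strand), Cd3d at chr9:44981786-44987339 (plus strand) and Cd3e at chr9:44998740-45009627 (minus strand). The starts of Cd3g and Cd3d face away from each other across 1354 bases. Cd3e shares exonic bases with an antisense gene, Gm48719, and since the strand of the counting is not given in the sources used here, reads of the pair cannot be told apart. Cd2 lies at chr3:101275899-101287939 (minus strand), Nkg7 at chr7:43437073-43438249 (plus strand) and Gzma at chr13:113093825-113100981 (minus strand).

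The RefSeq promoter table (GRCm38.p6, the assembly of mm10) held 6 of the 9 genes, and those of Cd79b, Ms4a1 and Cd2 were not in it. Windows run from 250 bases before to 50 bases after the RefSeq start. The promoters of Cd79a, Cd3d and Cd3g, which fell together after LPS in wild type, and of Gzma, which rose, are printed 5′ to 3′ on the strand of the gene. They are chr7:24897247-24897546 (Cd79a, plus strand), chr9:44981536-44981835 (Cd3d, plus strand), chr9:44980382-44980681 (Cd3g, minus strand) and chr13:113100932-113101231 (Gzma, minus strand). Capitals mark matches, on either strand, to 6 motifs: the E-box CAGGTG bound by E proteins, the Ets core GGAAGT, the Runx motif TGTGGT, the octamer ATGCAAAT, the EBF1 motif (TCCC, any 2 bases, then GGGA) and the NF-kB motif (GGG, any 2 bases, then TTTCC).
Cd79a: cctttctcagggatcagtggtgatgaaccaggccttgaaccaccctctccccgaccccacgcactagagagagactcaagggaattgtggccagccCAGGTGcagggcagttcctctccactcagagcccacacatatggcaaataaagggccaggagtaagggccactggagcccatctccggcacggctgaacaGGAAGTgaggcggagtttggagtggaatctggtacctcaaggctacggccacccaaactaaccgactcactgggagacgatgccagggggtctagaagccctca
Cd3d: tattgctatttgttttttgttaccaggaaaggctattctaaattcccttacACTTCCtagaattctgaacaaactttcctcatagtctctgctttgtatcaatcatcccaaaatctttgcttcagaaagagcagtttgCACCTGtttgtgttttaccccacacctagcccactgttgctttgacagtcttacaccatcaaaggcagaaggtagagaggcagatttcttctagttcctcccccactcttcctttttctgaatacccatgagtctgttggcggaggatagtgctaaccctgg
Cd3g: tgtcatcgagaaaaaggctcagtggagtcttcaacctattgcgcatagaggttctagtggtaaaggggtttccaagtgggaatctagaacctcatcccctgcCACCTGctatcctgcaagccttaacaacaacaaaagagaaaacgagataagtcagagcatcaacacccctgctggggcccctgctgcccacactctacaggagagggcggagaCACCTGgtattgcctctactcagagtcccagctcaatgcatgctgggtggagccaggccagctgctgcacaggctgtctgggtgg
Gzma: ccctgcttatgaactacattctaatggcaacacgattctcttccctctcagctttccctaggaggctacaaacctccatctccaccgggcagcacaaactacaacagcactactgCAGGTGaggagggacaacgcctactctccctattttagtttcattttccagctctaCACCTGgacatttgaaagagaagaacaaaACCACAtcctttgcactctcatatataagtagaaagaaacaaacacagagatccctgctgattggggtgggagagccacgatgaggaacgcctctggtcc

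The first base of the E-box match in Cd79a lay 154 bases before the start, with an Ets core 54 bases before it. In Cd3d an E-box match lay 112 bases and an Ets core 199 bases before the start. The Cd3g window held 2 E-box matches, 148 and 35 bases before the start. Gzma also held 2 E-box matches, 135 and 79 bases before the start, and a Runx match at 50 bases. Cd3e held an E-box and an Ets core and Nkg7 a Runx match, and none of the 6 windows held the octamer, the EBF1 or the NF-kB motif. Of all 32851 promoters in the table, 20.2% held the E-box, 23.8% the Ets core, 16.8% the Runx motif, 1.74% the octamer, 0.904% the EBF1 motif and 1.63% the NF-kB motif. E-box matches were therefore in promoters of genes that fell and of the gene that rose. A match is a description of the letters and shows no binding.

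In untreated wild type, the B cell receptor chains Cd79a and Cd79b and granzyme A were the most abundant of the set. Mean TPM in WT was 14.2 ± 3.22 for Cd79b (SD, n = 3), 12.6 ± 6.20 for Gzma and 12.3 ± 5.07 for Cd79a, and these 3 ranges overlapped. Nkg7 followed with 6.28 ± 2.76, Cd2 with 4.06 ± 2.49, Cd3g with 3.05 ± 1.17, Cd3d with 2.56 ± 0.701, Ms4a1 with 1.99 ± 0.501 and Cd3e with 1.89 ± 0.178. After LPS the order differed: Gzma led in WT-LPS with 34.1 ± 5.03 TPM, and Cd3g was lowest with 0.133 ± 0.115. The plot of TPM by library shows all 108 values.

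**Figure D1:**
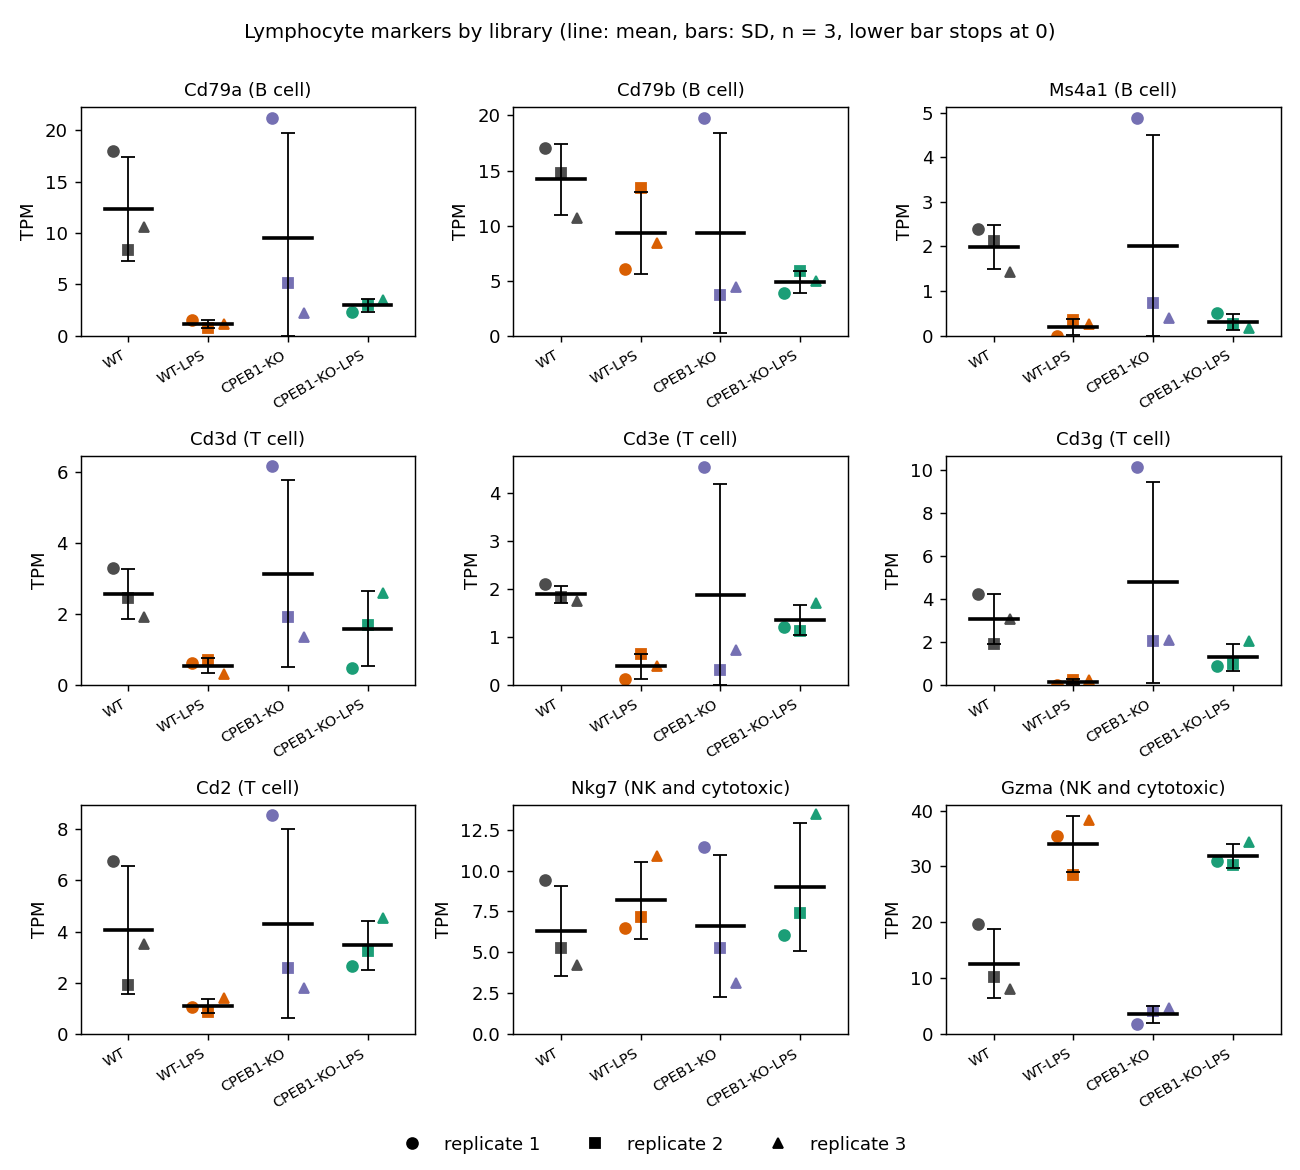
TPM of the 9 lymphocyte markers in each of the 12 libraries, 1 panel per gene with its own axis from 0. Circles, squares and triangles are replicates 1, 2 and 3, horizontal lines are means and bars are SD (n = 3). WT-LPS points lie below every WT point for Cd79a, Ms4a1, Cd3d, Cd3e, Cd3g and Cd2, and above them for Gzma. CPEB1-KO replicate 1 is the highest point of its group in every panel but that of Gzma, where it is the lowest.

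After LPS in wild type, B and T cell transcripts were lower and granzyme A was higher. Of the 9 genes, 5 fell (Cd79a, Ms4a1, Cd3d, Cd3g and Cd2), Gzma rose, and Cd79b, Cd3e and Nkg7 did not pass an adjusted p of 0.05 in edgeR's quasi-likelihood test over 15295 genes. In this comparison 27.4% of all genes tested passed, 12.4% higher and 14.9% lower. The median log2 fold change was -2.56 over the 9 genes and -0.03 over all genes. TPM ranges did not overlap for 7 of the 9, with 6 lower and 1 higher in WT-LPS. Among all genes such ranges were lower in 10.8% and higher in 27.4%.

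Among the B cell genes, Cd79a showed the lowest adjusted p of the set. It had 125, 37 and 44 counts in WT replicates 1 to 3 (18.0, 8.31 and 10.6 TPM) and 12, 5 and 8 counts in WT-LPS (1.49, 0.71 and 1.16 TPM). Every treated library was below every untreated one, with a log2 fold change of -3.76 ± 0.73 (SE; edgeR adjusted p = 0.00302). Ms4a1, which encodes CD20, had 28, 16 and 10 counts in WT (2.40, 2.13 and 1.43 TPM) and 0, 4 and 3 in WT-LPS (0, 0.34 and 0.26 TPM). Its ranges did not overlap either, and it fell by 3.66 on the log2 scale (SE 1.02; edgeR adjusted p = 0.0186). A count of 0 in a library allows up to 3 counts.

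Cd79b, whose product pairs with that of Cd79a in the B cell receptor, did not follow Cd79a. It had 104, 58 and 39 counts in WT (17.0, 14.8 and 10.7 TPM) and 43, 83 and 51 in WT-LPS (6.09, 13.4 and 8.40 TPM). Those ranges overlapped, and the log2 fold change was -0.95 ± 0.58 (SE; edgeR adjusted p = 0.233). The ratio of Cd79a to Cd79b in TPM was 1.06, 0.561 and 0.992 in the WT libraries and 0.245, 0.053 and 0.138 in WT-LPS. In CPEB1-KO it was 1.07, 1.39 and 0.485, and in CPEB1-KO-LPS 0.597, 0.516 and 0.705. WT-LPS libraries thus had the 3 lowest ratios of the 12. In a library both transcripts share depth and preparation, so the ratio does not depend on the scaling between libraries.

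T cell transcripts were fewer still. Cd3g had 21, 6 and 9 counts in WT (4.23, 1.89 and 3.04 TPM) and 0, 1 and 1 in WT-LPS (0, 0.20 and 0.20 TPM). With 2 counts in all 3 treated libraries against 36, the ratio of scaled counts was 31.8, with a 95% counting interval from 8.19 to 273, and the fitted log2 fold change was -4.66 ± 1.03 (SE; edgeR adjusted p = 0.00566). Cd3d had 23, 11 and 8 counts in WT (3.31, 2.46 and 1.92 TPM) and 5, 5 and 2 in WT-LPS (0.62, 0.71 and 0.29 TPM). No treated library reached an untreated one, and Cd3d fell by 2.56 on the log2 scale (SE 0.80; edgeR adjusted p = 0.0306). Cd3e had 16, 9 and 8 counts in WT (2.09, 1.83 and 1.75 TPM) and 1, 5 and 3 in WT-LPS (0.11, 0.64 and 0.39 TPM). Its ranges did not overlap, but its log2 fold change of -2.62 ± 0.94 missed the threshold (SE; edgeR adjusted p = 0.0531). Cd2, the adhesion receptor, had 39, 7 and 12 counts in WT (6.78, 1.90 and 3.50 TPM) and 7, 5 and 8 in WT-LPS (1.05, 0.85 and 1.40 TPM). Here the gap between groups was narrow, between 1.40 and 1.90 TPM, and the log2 fold change was -2.20 ± 0.66 (SE; edgeR adjusted p = 0.0262).

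The cytotoxic genes went another way. Gzma had 79, 26 and 19 counts in WT (19.6, 10.1 and 7.94 TPM) and 165, 116 and 153 in WT-LPS (35.5, 28.5 and 38.2 TPM). All 3 treated libraries exceeded the untreated ones, with a log2 fold change of 1.08 ± 0.34 (SE; edgeR adjusted p = 0.0330). Nkg7 had 34, 12 and 9 counts in WT (9.42, 5.23 and 4.20 TPM) and 27, 26 and 39 in WT-LPS (6.50, 7.14 and 10.9 TPM). Its ranges overlapped, and the log2 fold change was 0.01 ± 0.55 (SE; edgeR adjusted p = 0.991). Granzyme A and Nkg7 therefore differed within the libraries: the ratio of Gzma to Nkg7 in TPM was 2.08, 1.94 and 1.89 in WT and 5.47, 3.99 and 3.51 in WT-LPS.

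**Figure D2:**
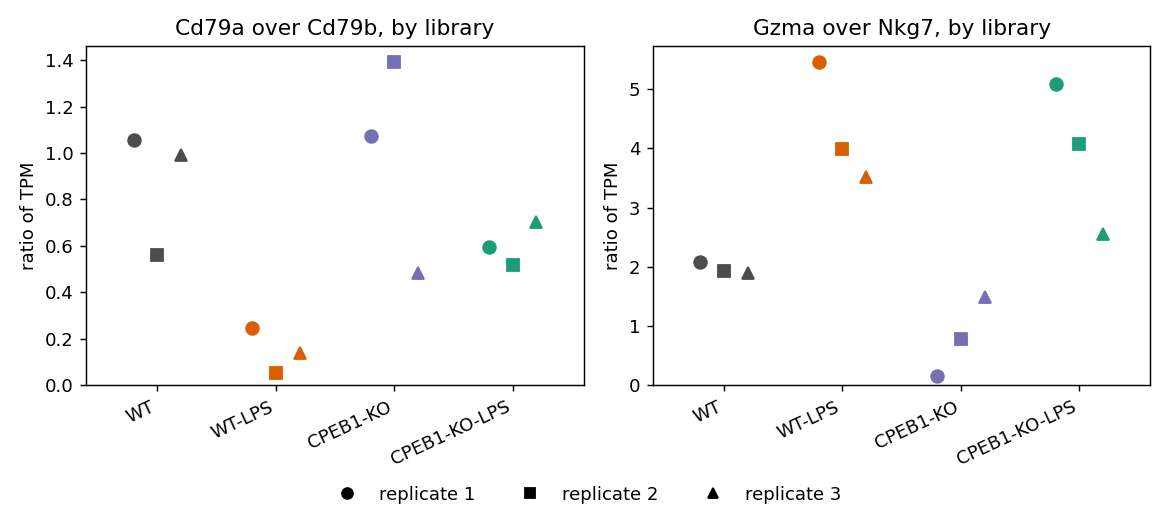
Ratio of TPM between 2 genes within each library, for Cd79a over Cd79b (left) and Gzma over Nkg7 (right), with circles, squares and triangles for replicates 1, 2 and 3. WT-LPS has the lowest Cd79a ratios (0.053 to 0.245), and the Gzma ratio is above 2.5 in every LPS library and at most 2.08 in every untreated one.

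Cd79a and Cd3g passed in all 14 alternatives run for this comparison. The other calls were less firm, and 2 to 5 of the 9 genes passed when 1 library was left out. Cd3d was lost without WT replicate 1 or 2 (edgeR adjusted p = 0.0661 and 0.0710) and without WT-LPS replicate 1, 2 or 3 (0.0686, 0.0560 and 0.105). Cd2 was lost without WT replicate 1 (edgeR adjusted p = 0.107) and without WT-LPS replicate 1, 2 or 3 (0.0697, 0.0754 and 0.0634). Ms4a1 was lost without WT-LPS replicate 1 or 3 (edgeR adjusted p = 0.0541 and 0.0578). Gzma was lost without WT replicate 2 or 3 (edgeR adjusted p = 0.0656 and 0.107) and without WT-LPS replicate 2 or 3 (0.0578 and 0.0841). With the replicate number as a block over the 4 groups, Gzma also missed the threshold (log2 fold change 1.07, edgeR adjusted p = 0.0559), as it did with only WT and WT-LPS fitted (1.12, adjusted p = 0.0556). Cd2 missed it in limma on log2(TPM + 1) (-1.16, adjusted p = 0.0567). Cd3e passed in DESeq2 (-2.61, adjusted p = 0.0233), in limma on log2(TPM + 0.1) (-2.23, adjusted p = 0.0343) and in edgeR with only these groups (-2.58, adjusted p = 0.0214). With the block and only WT and WT-LPS, Gzma passed (1.17, edgeR adjusted p = 0.0317), and Cd3e passed as well (-2.67, edgeR adjusted p = 0.0172). Every alternative kept the sign of these 6 genes and of Cd3e.

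In the mice labelled CPEB1 knockout, granzyme A was higher after LPS, and no other gene of the set passed. In this comparison 6.22% of all genes passed in edgeR, 4.1% higher and 2.12% lower. Gzma had 7, 21 and 20 counts in CPEB1-KO (1.79, 4.10 and 4.66 TPM) and 148, 155 and 139 in CPEB1-KO-LPS (30.9, 30.2 and 34.3 TPM). The groups were far apart, with a log2 fold change of 3.23 ± 0.38 (SE; edgeR adjusted p = 0.000247). It passed in all 13 alternatives, at log2 fold changes of 2.92 to 3.47. TPM ranges did not overlap for Gzma, which was higher, and for Cd3g, which was lower. Over all genes, 16.2% were higher and 15.0% lower in this way.

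The B and T cell values in untreated libraries of this genotype were spread widely by replicate 1. Cd79a had 144, 46 and 16 counts in CPEB1-KO (21.2, 5.17 and 2.16 TPM) and 19, 27 and 24 in CPEB1-KO-LPS (2.31, 3.03 and 3.47 TPM). Its ranges overlapped and the log2 fold change was -1.66 ± 0.65 (SE; edgeR adjusted p = 0.164). Ms4a1 had 56, 11 and 5 counts (4.88, 0.73 and 0.40 TPM) and, after LPS, 7, 4 and 2 (0.51, 0.26 and 0.17 TPM), with overlapping ranges and a log2 fold change of -2.62 ± 0.93 (SE; edgeR adjusted p = 0.121). DESeq2 called Ms4a1 lower (-2.70, adjusted p = 0.0398). Cd79b had 118, 29 and 29 counts in CPEB1-KO (19.8, 3.71 and 4.45 TPM) and 28, 46 and 30 in CPEB1-KO-LPS (3.87, 5.87 and 4.92 TPM). Replicates 2 and 3 of CPEB1-KO lay within or below the treated range for Cd79b.

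Of the T cell genes, Cd3g had 49, 13 and 11 counts in CPEB1-KO (10.1, 2.05 and 2.08 TPM) and 5, 6 and 10 in CPEB1-KO-LPS (0.85, 0.94 and 2.01 TPM). The ranges were separated by 2.01 against 2.05 TPM, and the log2 fold change was -1.84 ± 0.72 (SE; edgeR adjusted p = 0.160). Cd3d had 42, 17 and 10 counts (6.17, 1.91 and 1.35 TPM) and, after LPS, 4, 15 and 18 (0.48, 1.68 and 2.59 TPM). Cd3e had 34, 3 and 6 counts (4.54, 0.31 and 0.73 TPM) and, after LPS, 11, 11 and 13 (1.21, 1.12 and 1.71 TPM). In both genes treated and untreated libraries were mixed. Cd2 had 48, 19 and 11 counts (8.55, 2.58 and 1.79 TPM) against 18, 24 and 26 (2.64, 3.25 and 4.52 TPM). Nkg7 had 40, 24 and 12 counts (11.5, 5.24 and 3.13 TPM) against 26, 34 and 49 (6.07, 7.43 and 13.5 TPM). Both again overlapped between the groups.

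Leaving out CPEB1-KO replicate 1 moved the values of the B and T cell genes upward, and 4 of the 7 changed sign. The direction of this move follows from the choice of that library. Without it, the log2 fold change in CPEB1-KO-LPS against CPEB1-KO was -0.23 for Cd79a, 0.34 for Cd79b and -0.78 for Ms4a1. For the T cell genes it was 0.07 for Cd3d, 1.45 for Cd3e, -0.60 for Cd3g and 0.76 for Cd2. Nkg7 was then at 1.23, against 0.55 with all libraries, and Gzma at 2.96, the only one of the 9 past the threshold. In replicate 1 the plasma cell gene Mzb1 stood at 12.5 TPM, against 0.56 and 0.89 TPM in replicates 2 and 3, and Igj, the joining chain of secreted antibodies, at 289 counts against 77 and 28. Other plasma cell genes differed less. Derl3 stood at 3.21 TPM in replicate 1 against 1.67 and 1.74 TPM, and Tnfrsf17 lay between 4.18 and 5.45 TPM in every CPEB1-KO library. The bar plot of summed counts shows this library beside the others.

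**Figure D3:**
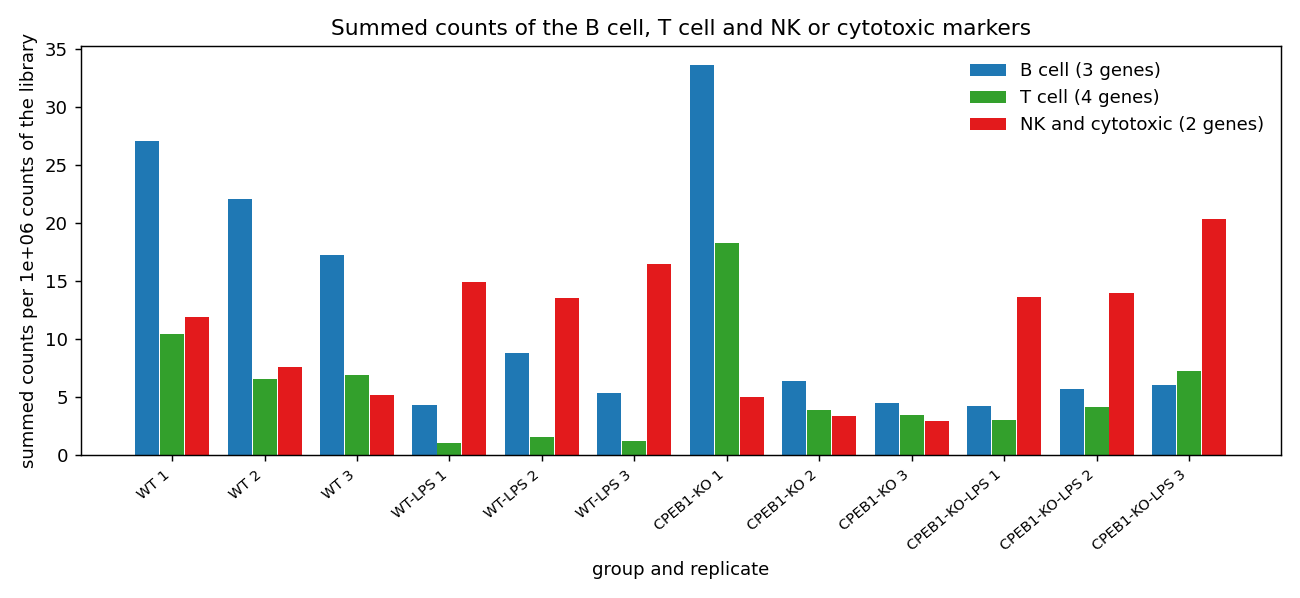
Summed counts of the 3 B cell, 4 T cell and 2 NK and cytotoxic genes per M counts of each library, as bars from 0, without error bars because each bar is 1 library. CPEB1-KO replicate 1 has the highest B cell (33.6) and T cell (18.3) sums, and the T cell sums of WT-LPS, 1.01 to 1.52, are the lowest.

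Between the untreated genotypes, Gzma was the gene of the set with the largest difference. WT libraries had 19.6, 10.1 and 7.94 TPM and CPEB1-KO libraries 1.79, 4.10 and 4.66 TPM, so that the ranges did not overlap. The log2 difference, CPEB1-KO against WT, was -2.15 ± 0.38 (SE), with an unadjusted p of 7.45e-05 and an edgeR adjusted p of 0.0950, above the threshold. DESeq2 called it (-2.19, adjusted p = 6.4e-05), as did edgeR without WT replicate 1 (-1.79, adjusted p = 0.0228). None of the 9 genes passed in edgeR, against 0.0327% of all genes (5, all lower and 0 higher). At an unadjusted p under 0.05 the count was 1, against 2844 of all 15295 genes, and with DESeq2 it was 1, against 519 genes. Ranges that did not overlap were lower for 1 of the 9 genes, against 5.09% of all genes, and higher for 0, against 26.7%. On the other 8 genes, log2 differences lay between -0.93 (Cd79b) and 0.33 (Cd3g), with SE of 0.55 to 0.81. Without CPEB1-KO replicate 1 they were all negative, from -2.21 (Cd3e) to -0.90 (Cd3g), with none past the threshold, and that of Gzma was -1.87. For the other 8 genes the downward move follows from the choice of that library, the highest of its group for each.

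After LPS, Gzma did not separate the genotypes (log2 difference 0.00 ± 0.33, edgeR adjusted p = 0.997). Among the others, Cd79a, Cd3e, Cd3g and Cd2 were higher in every CPEB1-KO-LPS library than in any WT-LPS library, and Cd79b was lower in every one. Ranges apart in this way held for 3.73% of all genes in the higher and 8.75% in the lower direction. The log2 differences were 1.74 ± 0.65 for Cd2 and 3.15 ± 1.10 for Cd3g (SE; edgeR adjusted p = 0.422 for each). Cd3g had 21 counts in CPEB1-KO-LPS and 2 in WT-LPS, so the ratio of WT-LPS to CPEB1-KO-LPS was 0.1, with a 95% counting interval from 0.011 to 0.41. For Cd79a the log2 difference was 1.46 ± 0.74, for Cd3d 1.61 ± 0.80, for Cd3e 1.86 ± 0.93 and for Cd79b -0.87 ± 0.59 (SE). None of the 9 genes passed in edgeR or in DESeq2, and 0.00654% of all genes passed in edgeR (1 gene, lower). Under an unadjusted p of 0.05 were 2 of the 9, against 1653 of all 15295 genes.

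The LPS response in CPEB1-KO minus that in WT (interaction) was positive for all 9 genes, and 0 of them passed in edgeR, again against 0.00654% of all genes (1 gene, higher). It was 2.15 ± 0.50 for Gzma (SE; unadjusted p = 0.000819, edgeR adjusted p = 0.195), which started lower in CPEB1-KO and reached an overlapping TPM range after LPS. DESeq2 gave 2.12 with an adjusted p of 0.0135, the only one of the 9 genes it called. Cd79a (2.11 ± 0.96) and Cd2 (1.95 ± 0.88) were the others under an unadjusted p of 0.05, and Cd3g was at 2.82 ± 1.31 (SE). Of all 15295 genes, 2365 were under that unadjusted p. With each of the 12 libraries left out in turn, the interaction was 1.63 to 3.53 for Cd79a and 1.46 to 2.95 for Cd2. It was 1.67 to 4.07 for Cd3e, 2.18 to 4.05 for Cd3g and 1.79 to 2.39 for Gzma, and 0 of the 9 genes passed. Cd3d ranged from 0.98 to 2.62 and Ms4a1 from 0.34 to 2.87, while Cd79b (-0.35 to 1.29) and Nkg7 (-0.05 to 1.21) changed sign. Signs of the 9 genes are not independent, as all come from the same 12 libraries. The 5 contrasts share libraries: the interaction uses all 12, and each group enters 3 of them. The plot of log2 fold changes sets the 5 contrasts side by side.

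**Figure D4:**
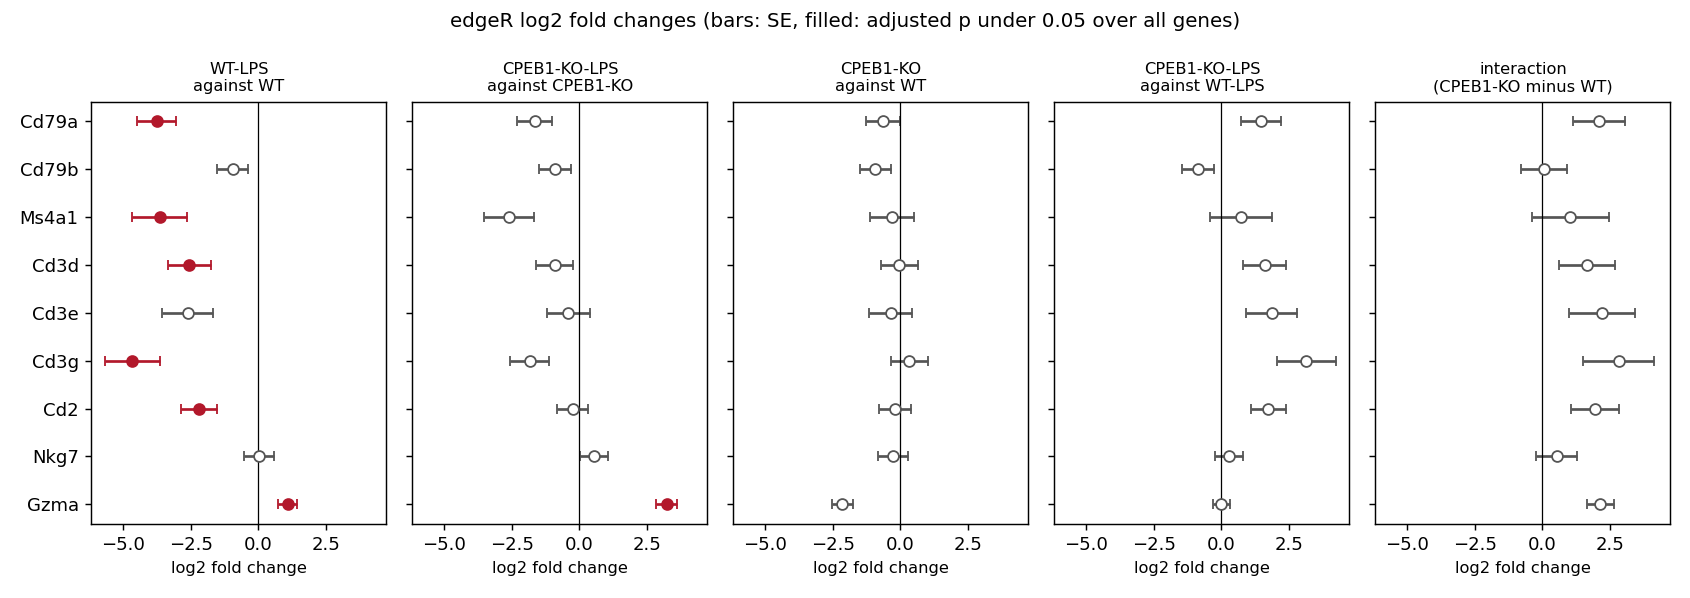
Log2 fold changes of the 9 genes in 5 contrasts of the edgeR fit, with SE as bars; filled points had an adjusted p under 0.05 over all genes. Points are filled for 6 genes in WT-LPS against WT, for Gzma alone in CPEB1-KO-LPS against CPEB1-KO, and for none in the other 3.

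The order of the group means differed by role. Cd79a, Cd79b and Cd3e were highest in WT, and Ms4a1, Cd3d, Cd3g and Cd2 in CPEB1-KO, but WT and CPEB1-KO overlapped for each of these 7 genes. Without CPEB1-KO replicate 1 all 7 were highest in WT: the CPEB1-KO mean of the 2 libraries left was 0.565 TPM for Ms4a1, 1.63 for Cd3d, 2.07 for Cd3g and 2.19 for Cd2. The ranges then overlapped for Cd3g and Cd2 only, and Cd3d was apart by 1.91 against 1.92 TPM. How many of all genes lie apart with 3 libraries against 2 was not determined, and none of the 7 passed in edgeR without this library. Its high values of these genes are why it was left out, so the new order follows partly from that choice. WT replicate 1, with the highest B cell (27.1) and T cell (10.4) counts per M of its group, was kept. Both cytotoxic genes were highest after LPS. WT-LPS had the lowest mean for all of the B and T cell genes but Cd79b, which was lowest in CPEB1-KO-LPS. Gzma was the only gene of the set whose untreated groups lay apart from each other and from both LPS groups, in the order WT-LPS and CPEB1-KO-LPS (overlapping), WT, CPEB1-KO.

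Other B cell genes fell with Cd79a and Ms4a1, but the list was not uniform. In WT-LPS against WT, 13 of its 16 measured genes were tested, of which 4 fell and 2 rose (edgeR), against 14.9% and 12.4% of all genes, and the median was -1.53. Bank1, a B cell scaffold protein, went from 7.28, 5.35 and 8.33 TPM to 0.80, 1.06 and 0.67 TPM, a log2 fold change of -3.37 ± 0.31 (SE; edgeR adjusted p = 4.42e-05). For Faim3, the older symbol of Fcmr, an IgM receptor, 60 counts in WT stood against 2 after LPS (ratio 53.0), with a 95% counting interval from 14.1 to 448. Cd72 rose instead, from 6.40, 12.7 and 4.43 TPM to 58.2, 90.8 and 90.9 TPM (2.95 ± 0.66, adjusted p = 0.00620). The summed TPM of the list was therefore higher in WT-LPS (72.0 to 103 TPM) than in WT (36.3 to 48.3 TPM), and without Cd72 it was lower, at 10.7 to 13.8 against 30.3 to 41.9 TPM. In CPEB1-KO-LPS against CPEB1-KO, 1 fell (Bank1, -2.33 ± 0.30) and 1 rose (Cd72, 3.24 ± 0.65), with a median of -0.71. There 2.12% of all genes fell and 4.1% rose.

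Of 18 T cell genes tested, 4 fell and 1 rose in WT-LPS against WT (edgeR), where 14.9% of all genes fell and 12.4% rose, so the count is near the background. The median was -0.86. Those named are Cd8b1, a chain of the CD8 co-receptor (-2.72 ± 0.58, SE; edgeR adjusted p = 0.0047), and 2 signalling proteins of the T cell receptor, the adaptor Lat (-1.75 ± 0.57) and the kinase Lck (-1.80 ± 0.59). Ctla4, an inhibitory receptor of activated and regulatory T cells, rose from 3, 1 and 2 counts to 20, 13 and 22 (2.33 ± 0.79, adjusted p = 0.0436). It was also the 1 T cell gene that changed in CPEB1-KO-LPS against CPEB1-KO, from 9, 4 and 1 counts to 25, 39 and 60 (3.17 ± 0.67, adjusted p = 0.0128). The list's median there was 0.21, and 4.1% of all genes rose.

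Other NK and cytotoxic genes moved in both directions in wild type. In WT-LPS against WT 2 of 13 tested rose and 3 fell (edgeR), near the shares of all genes (12.4% and 14.9%). For CPEB1-KO-LPS against CPEB1-KO 2 rose and 0 fell (4.1% and 2.12% of all genes). There 4 were under an unadjusted p of 0.05, against 3136 of all 15295 genes, and 3 passed in DESeq2. Gzmb, granzyme B, went from 4.52, 1.86 and 1.78 TPM in WT to 20.0, 15.0 and 23.8 TPM in WT-LPS (2.46 ± 0.35, SE; edgeR adjusted p = 0.000612). In the other genotype it went from 1.49, 0.73 and 1.37 TPM to 13.7, 14.1 and 12.8 TPM (3.55 ± 0.38, adjusted p = 0.000127). Ccl5, a chemokine that cytotoxic lymphocytes and activated macrophages both make, rose by a log2 fold change of 4.41 ± 0.56 in wild type and 5.70 ± 0.59 in mice labelled knockout. Ctsw, cathepsin W of cytotoxic cells, fell in wild type from 4.59, 3.21 and 4.50 TPM to 0.82, 0.78 and 2.07 TPM (-2.10 ± 0.61, adjusted p = 0.0229). Klra8, an NK receptor, had 13, 5 and 6 counts in WT and 2, 0 and 5 in WT-LPS (-2.52 ± 0.80, adjusted p = 0.0328), and it had 1 count in all of CPEB1-KO and 3 in all of CPEB1-KO-LPS. Without Ccl5 the summed TPM of this list overlapped between WT (27.1 to 48.6 TPM) and WT-LPS (29.4 to 49.7 TPM).

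Plasma cells, the antibody-secreting form of B cells, were represented by 4 genes, of which 2 fell in wild type, against 14.9% of all genes. Mzb1 had 17, 8 and 10 counts in WT and 0 in each WT-LPS library, at least 20.6-fold lower against a floor of 3 counts over the group (edgeR adjusted p = 0.0135). Tnfrsf17, the receptor BCMA, had 32, 34 and 27 counts in WT and 1 over the 3 treated libraries (ratio 164), with a 95% counting interval from 28.8 to 6560. In the mice labelled knockout it had 19, 21 and 16 counts before LPS and 0 after, at least 19.1-fold lower. It was the 1 gene of the list that passed there, where 2.12% of all genes fell. Over the CPEB1-KO libraries Tnfrsf17 (4.18 to 5.45 TPM) varied less than Mzb1 (0.56 to 12.5 TPM) and Igj (2.19 to 24.6 TPM). Whether the fall of Tnfrsf17 after LPS came from plasma cells was not tested. Igj counts summed to 35 before and 65 after LPS in wild type (log2 fold change -0.10 ± 0.96).

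Receptors that guide lymphocytes between blood and tissue moved in both directions. In WT-LPS against WT, 2 of 8 fell and 0 rose in edgeR, with 4 under an unadjusted p of 0.05 and 2 called by DESeq2. Of all 15295 genes, 14.9% fell, 12.4% rose and 6229 were under an unadjusted p of 0.05. The 2 receptors that fell were Ccr6, with 35 counts against 1 (ratio 61.9, 95% counting interval from 10.4 to 2512), and Cxcr3, with 28 counts against 4 (-3.50 ± 1.05, SE, edgeR adjusted p = 0.0259). Cxcr3 had 1 count in WT replicate 3, so its TPM ranges overlapped. In CPEB1-KO-LPS against CPEB1-KO 2 fell and 2 rose, where 2.12% of all genes fell and 4.1% rose. S1pr1, which guides exit into blood, fell from 21.9, 44.0 and 49.6 TPM to 12.2, 15.7 and 11.7 TPM (-1.50 ± 0.32, edgeR adjusted p = 0.0145), and Ccr6 went from 47, 42 and 34 counts to 0, 1 and 5. Cd69, an early activation marker, rose from 2.77, 0.44 and 0.53 TPM to 5.91, 5.18 and 23.8 TPM, and Ccr7 from 1.46, 0.84 and 0.25 TPM to 2.65, 3.82 and 6.80 TPM (adjusted p = 0.0308 and 0.0330). S1pr1 and Cd69 are not restricted to lymphocytes. The 8 pan-leukocyte genes, which leukocytes and microglia share, held 0 calls in either LPS comparison in edgeR and in DESeq2, with 0 (wild type) and 1 (labelled knockout) under an unadjusted p of 0.05.

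Erythroid and platelet markers were lower after LPS in wild type, as the B and T cell genes were, while neutrophil and monocyte markers were not. Erythroid markers summed to between 41663 and 66991 TPM in WT and between 6544 and 10887 TPM in WT-LPS, and all 4 of 4 tested fell (edgeR). In CPEB1-KO they summed to 27877 to 37849 TPM and in CPEB1-KO-LPS to 7051, 11851 and 61141 TPM, with 0 of 4 called by edgeR or DESeq2 and 0 under an unadjusted p of 0.05. Platelet markers summed to 59.4 to 130 TPM in WT and 20.6 to 33.5 TPM in WT-LPS, with 3 of 4 lower. Border macrophage markers (4 of 7 lower) and microglia markers (6 of 10 lower) also fell in that comparison, while neutrophil markers held 0 of 8 calls in edgeR and DESeq2, with 2 under an unadjusted p of 0.05, and overlapped (1106 to 2732 against 1479 to 3166 TPM). Monocyte markers rose in 4 of 8 and fell in 1 (71.0 to 111 against 266 to 531 TPM). Endothelial markers rose in 4 of 8 and fell in 1, neuron markers rose in 2 of 10, and dendritic cell markers rose in 1 of 3 and fell in 1. In WT-LPS against WT 14.9% of all genes were lower and 12.4% higher, and 6229 of 15295 were under an unadjusted p of 0.05. The count of neuron markers was near that share. In the labelled knockouts the lists with calls were microglia (3 of 10 lower), endothelial (2 of 8 lower) and monocyte (1 of 8 lower). There 2.12% of all genes were lower. No defining marker of the erythroid, platelet, neutrophil, monocyte or microglia lists was at 0 counts in a group. CPEB1-KO-LPS replicate 3, with the most erythroid transcript of its group, also had the highest T cell sum (7.24 counts per M, against 2.97 and 4.13). WT-LPS replicate 2 and CPEB1-KO replicate 1 were likewise highest in both within their groups. WT went the other way: replicate 3 had the most erythroid transcript (66991 TPM) but a T cell sum of 6.85, against 10.4 in replicate 1 (44820 TPM). The part of these cells in the lymphocyte results was not tested.

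Within the set, B and T cell genes varied together over the 12 libraries. Pearson's r of log2 counts per M was 0.914 between Cd79a and Cd3g, 0.908 between Cd3d and Cd3g, 0.899 between Cd3g and Cd2, and 0.883 between Cd79a and Ms4a1. Cd79b was less close to Cd79a (0.591) and to Cd3g (0.453). Gzma was opposed to Cd3g (-0.668) and Ms4a1 (-0.593), and its r with Nkg7 was 0.329. Without CPEB1-KO replicate 1 the B and T cell values were somewhat lower (0.889 for Cd79a and Cd3g, 0.872 for Cd3d and Cd3g, 0.859 for Cd3g and Cd2, 0.847 for Cd79a and Ms4a1, 0.494 for Cd79a and Cd79b, 0.295 for Cd79b and Cd3g). Gzma was then at -0.495 with Cd3g and -0.387 with Ms4a1, and at 0.73 with Nkg7, so that the low r of the 2 cytotoxic genes rested on that library. These values describe 12 libraries that share treatment groups and differ in depth.

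Among 14435 other genes, those most like the mean of the B cell genes over the 12 libraries were Ctsw (r = 0.941), Dennd1c (0.931), Faim3 (0.93), H2-DMb2 (0.929) and Zfp691 (0.927). H2-DMb2 encodes a chain of the H2-DM protein, which helps load MHC class II with peptide. Closest to the T cell mean were the plasma cell gene Mzb1 (0.958), Papl (0.947), the MHC class II chain H2-Eb1 (0.929), the dendritic cell gene Cd209a (0.923) and Ifi27 (0.912). For the cytotoxic mean they were Cfap53 (0.931), Atf4 (0.931), Lpo (0.929), Slfn8 (0.927) and Rab32 (0.924). Over the 11 libraries without CPEB1-KO replicate 1, 2 of the 5 genes named for the B cell mean (Dennd1c and Zfp691), 2 for the T cell mean (Mzb1 and Papl) and 4 for the cytotoxic mean (all but Slfn8) stayed among the 5 closest. Some of these are expressed well above the set: Atf4 stood at 127 to 337 TPM and Ifi27 at 87.5 to 278 TPM.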

How the data were processed

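Counts and TPM came from 2 deposited tables of 23845 genes by 12 libraries. Cutadapt, RSEM and the mm10 build are listed in the submitters' processing notes, while the aligner, tool versions and strand setting were not given in the sources used here. One table holds expected counts, which the authors deposited without normalization between libraries (3.69% to 4.66% of values per library are not whole). The other holds TPM, computed by the authors within each library. Date-like entries in place of 27 gene symbols were converted back.

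Expected counts were rounded and fitted with edgeR 4.0.16 in R 4.3.3 (filterByExpr by group, 15295 genes kept, TMM, 4 group means over 12 libraries, quasi-likelihood F test, 8 residual degrees of freedom, common biological coefficient of variation 0.282). P-values are two-sided and Benjamini-Hochberg adjusted over all genes tested, with a threshold of 0.05. SE of a log2 fold change is its size divided by the square root of F. The fit was tested on simulated data. The alternatives were RLE size factors, DESeq2 1.42.0, no filter, limma 3.58.1 on log2(TPM + 1) and log2(TPM + 0.1), a replicate block, only the 2 groups compared, and leaving out each library in turn. The block with only WT and WT-LPS and the values without CPEB1-KO replicate 1 for group order and correlations were added after seeing the data. Counting intervals are exact at 95% and, like the floor of 3 counts, describe counting error only, as PCR copies of a molecule cannot be recognised.

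The text names the 9 members, up to 4 genes of each of 15 lists (142 of 150 entries matched) by smallest unadjusted p in the comparison described (1 gene that the rule names is not reported here), and the 5 genes most alike per role group by Pearson's r of log2 CPM. Members and lists were chosen with earlier results of these data known. Promoters come from RefSeq and were searched for 6 motifs chosen by hand. In WT and WT-LPS, libraries with the same replicate number deviated together (r = 0.378, 0.149 and 0.176 for numbers 1 to 3), which met the rule for pairing. The labels do not say what the numbers share. The main fit has no replicate block, and the block was run as an alternative only. No other pair of groups met this rule. Libraries are separate animals of a group, per the labels.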

Additional observations from a re-analysis of the deposited data

How the results depend on the processing

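Counts of calls depended on the tool and on single libraries, and the causes were not tested. Genes past the threshold numbered 4185 in WT-LPS against WT and 2592 with only the 2 groups compared, and 2714 to 4488 when 1 library was left out (lowest without WT-LPS replicate 3); the 9 members gave 6 and 2 to 5. In CPEB1-KO-LPS against CPEB1-KO there were 952, 1655 with DESeq2 (2 members, against 1) and 355 to 703 without a library, always with 1 member. CPEB1-KO against WT gave 5 genes, 519 with DESeq2 (1 member, against 0), 11 with no filter, 3 with the replicate block and 9 on log2(TPM + 1). Without a library it gave 2 to 1292, the last without WT replicate 1, and 0 to 1 members. CPEB1-KO-LPS against WT-LPS gave 1 gene, 90 with DESeq2, 3 with no filter, 4 on log2(TPM + 1), 9 on log2(TPM + 0.1) and 1 to 11 without a library. The interaction gave 1 gene, 301 with DESeq2 (1 member, against 0), 2 on log2(TPM + 1), 0 with RLE or log2(TPM + 0.1) and 0 to 441 without a library, the last without WT replicate 1.

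On the TPM scale (pseudocount 1) the median of all genes moved from -0.03 to 0.28 in WT-LPS against WT, where 75.7% of calls were higher against 45.4% in edgeR, and to 0.26 in CPEB1-KO against WT and -0.30 in the interaction. No called member changed sign in any alternative. Signs turned for Gzma in CPEB1-KO-LPS against WT-LPS (-0.0601 with RLE, -0.0620 with DESeq2, -0.0581 with only the 2 groups, -0.0665 with no filter, -0.0026 with the replicate block, -0.0873 and -0.0895 on the TPM scales, and -0.19 to 0.0629 without a library), Cd79b in the interaction (-0.0041 with no filter, -0.35 to 1.29 without a library), Cd3e in CPEB1-KO-LPS against CPEB1-KO (0.0054 and 0.29 on the TPM scales, -0.94 to 1.45 without a library) and Cd3d in CPEB1-KO against WT (0.0571 and 0.0171 on the TPM scales, -1.01 to 0.34 without a library). Leaving out a library also turned, in CPEB1-KO against WT, Cd2 (-1.21 to 0.29), Cd3e (-2.21 to 0.19), Cd3g (-0.90 to 0.72), Ms4a1 (-2.14 to 0.19) and Nkg7 (-0.94 to 0.0824); in CPEB1-KO-LPS against CPEB1-KO, Cd2 (-0.62 to 0.76), Cd3d (-1.58 to 0.0719), Cd79b (-1.29 to 0.34) and Nkg7 (-0.0333 to 1.23); and Nkg7 in WT-LPS against WT (-0.21 to 0.32), in CPEB1-KO-LPS against WT-LPS (-0.31 to 0.52) and in the interaction (-0.0458 to 1.21). The replicate block over the 4 groups changed the call of Gzma in WT-LPS against WT and of no other member; with only those 2 groups it added Cd3e. Members had 0 to 165 counts per library, and a difference that missed the threshold is not shown to be absent.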
